A study of Mus musculus with 20 samples.

Results

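The 10 mouse Toll-like receptor genes Tlr1, Tlr2, Tlr3, Tlr4, Tlr5, Tlr6, Tlr7, Tlr8, Tlr9 and Tlr13 were followed by name through 4 sorted populations and 5 treatments of one tumour model, out of 55260 genes counted. All libraries came from C57BL/6 mice bearing tumours of MC38-OVA, a mouse colon carcinoma line that expresses the model antigen ovalbumin. The group labelled untreated stands for the arm without the 8 Gy dose, which the series' design text calls sham irradiation, and its labels name no antibody. The other 4 groups received 8 Gy of focal radiation on day 12 and either no antibody, anti-SIRPa (400 μg on days 12, 14 and 16), anti-PD-1 (250 μg on days 12 and 15) or both. SIRPa on myeloid cells binds CD47 and limits engulfment of the cells that display it, while PD-1 dampens T cell activation. On day 17, 5 days after irradiation, leukocytes of 10 tumours, 1 per mouse, were pooled for each group and sorted into CD8 T cells and the myeloid gates CD11c+CD11b+, CD11c+CD11b- and CD11c-CD11b+, giving 1 library per population and treatment. The labels call both CD11c+ gates dendritic cells. Every group is thus a pool of animals, the 4 populations of a treatment share that pool, and no group has a second library.

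Toll-like receptors are membrane proteins of innate immune cells that bind microbial molecules and some products of damaged cells. TLR2 pairs with TLR1 or TLR6 at the cell surface and binds lipoproteins, TLR4 binds lipopolysaccharide with its co-receptors, and TLR5 binds flagellin. TLR3, TLR7, TLR8, TLR9 and the rodent receptor TLR13 sit in endosomes and bind nucleic acids: double-stranded RNA (TLR3), single-stranded RNA (TLR7 and TLR8), unmethylated CpG DNA (TLR9) and bacterial ribosomal RNA (TLR13). Most signal through the adaptor MyD88 and TLR3 through TRIF, leading to NF-κB, interferon regulatory factors, inflammatory cytokines and type I interferon.

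On GRCm38 with the GENCODE M21 annotation, the genes lie at chr5:64924679-64933563 (Tlr1), chr3:83836272-83841767 (Tlr2), chr8:45395665-45411080 (Tlr3), chr4:66827584-66930284 (Tlr4), chr1:182954788-182976044 (Tlr5), chr5:64952031-64960097 (Tlr6), chrX:167304929-167330558 (Tlr7), chrX:167242696-167264329 (Tlr8), chr9:106222598-106226883 (Tlr9) and chrX:106143204-106160493 (Tlr13). Tlr4, Tlr5, Tlr9 and Tlr13 are on the plus strand and the others on the minus strand. Tlr1 and Tlr6 are neighbouring paralogs, as are Tlr7 and Tlr8, so reads could be split between them in counting. The assignment to transcripts was unsteady for some genes: Tlr3-201 took from 3.27% to 88.1% of the Tlr3 counts among the CD11c+CD11b+ libraries. All values are therefore sums over a gene's transcripts.

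RefSeq promoter windows on GRCm38.p6, which reach 250 bases before each start, were found for 8 of the 10 genes, with 10 entries. The windows were searched on both strands, together with the 50 bases after the start, for an interferon-response core (2 copies of GAAA with any 2 bases between them), an NF-κB site (the κB motif), an AP-1 site (TGANTCA) and a PU.1 core (GAGGAA), because regulators of these kinds act downstream of the receptors or in myeloid cells. The windows of Tlr3, Tlr6 and Tlr9 are shown because Tlr3 and Tlr9 were the genes that passed the irradiation test and Tlr6 held the only interferon-response core. Capitals mark the matches in the bases before the start.
Tlr3, chr8:45410381-45410630, minus strand: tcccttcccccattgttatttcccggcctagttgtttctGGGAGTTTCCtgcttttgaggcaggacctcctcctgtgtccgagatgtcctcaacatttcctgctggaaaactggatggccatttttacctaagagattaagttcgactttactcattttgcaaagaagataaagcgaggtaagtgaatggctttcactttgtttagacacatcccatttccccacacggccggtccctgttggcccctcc
Tlr6, first entry, chr5:64959167-64959416, minus strand: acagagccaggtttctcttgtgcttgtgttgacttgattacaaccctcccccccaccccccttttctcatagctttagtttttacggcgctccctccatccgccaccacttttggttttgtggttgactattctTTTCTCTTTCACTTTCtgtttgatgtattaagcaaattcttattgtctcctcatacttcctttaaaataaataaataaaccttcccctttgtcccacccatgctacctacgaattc
Tlr9, chr9:106222348-106222597, plus strand: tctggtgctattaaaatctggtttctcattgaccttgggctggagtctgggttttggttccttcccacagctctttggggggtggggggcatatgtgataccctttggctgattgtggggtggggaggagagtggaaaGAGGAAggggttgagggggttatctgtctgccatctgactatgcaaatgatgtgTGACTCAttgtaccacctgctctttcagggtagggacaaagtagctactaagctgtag
In Tlr6 the capitals are 2 overlapping interferon-response cores read on the opposite strand, a motif present in 3.43% of 32817 promoter windows of the same length. In Tlr3 they are a κB match, also found in Tlr2 and in 8.46% of all windows. In Tlr9 they are a PU.1 core followed by an AP-1 match. The AP-1 motif was found in Tlr9 alone among the 8 genes and in 7.81% of windows, and the PU.1 core in Tlr1, Tlr8, Tlr9 and Tlr13 and in 28.3% of windows. These matches describe letters and are not evidence of binding.

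Library totals ran from 21522743 to 35696925 counts, and a receptor gene had 54 to 13903 counts in a library. The 95% exact binomial interval of a level had a median half-width of 5.38% of the level and a widest of 27.7%, which covers counting error only. The library labelled untreated CD8 T went against its label: its 9 CD8 T cell markers summed to 211 in per-million counts (CPM), against 3057 to 4703 in the irradiated CD8 T libraries, and its 11 macrophage markers summed to 18849 CPM, above every myeloid library. The same macrophage sum was 7575 to 14625 CPM in CD11c+CD11b+, 4464 to 8673 in CD11c-CD11b+ and 500 to 1202 in CD11c+CD11b-, so the gate labelled CD11c+CD11b+ dendritic cells held the highest macrophage marker levels of the 3 myeloid gates. In CD11c+CD11b-, NK cell markers summed to 837 to 1208 CPM and fibroblast and tumour stroma markers to 5853 CPM in the untreated library and 408 to 1509 in the irradiated ones.

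Which receptors each population expressed is described first. Per transcript length, in per-million transcript units (TPM, mean ± SD over 5 pools), CD11c+CD11b+ cells held most Tlr2 (220 ± 41.2), then Tlr13 (163 ± 50.1), Tlr9 (152 ± 54.5), Tlr7 (85.9 ± 29.6) and Tlr8 (81.3 ± 31.0). Lower levels were measured for Tlr4 (54.1 ± 13.3), Tlr1 (44.3 ± 8.87), Tlr3 (39.0 ± 12.3), Tlr5 (26.4 ± 10.4) and Tlr6 (14.6 ± 3.69). Neighbours in this order mostly lay within each other's spread, for example Tlr13 and Tlr9, or Tlr7 and Tlr8. TPM divide each transcript by its own length before summing, so the unsteady assignment to transcripts can still reach them. CD11c-CD11b+ cells led with the same 3 genes at 218 ± 54.6 (Tlr2), 148 ± 54.2 (Tlr13) and 95.6 ± 37.3 TPM (Tlr9). CD11c+CD11b- cells had another order: Tlr9 (46.8 ± 27.8 TPM) and Tlr3 (40.9 ± 15.1) came first, then Tlr7 (29.7 ± 18.4), Tlr13 (22.9 ± 8.51), Tlr2 (17.3 ± 4.92) and Tlr4 (12.5 ± 2.52). The surface receptor genes Tlr1 (4.59 ± 0.872 TPM), Tlr6 (2.40 ± 0.515) and Tlr5 (1.80 ± 0.908), with the endosomal Tlr8 (5.20 ± 1.49), were the lowest there.

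**Figure D1:**
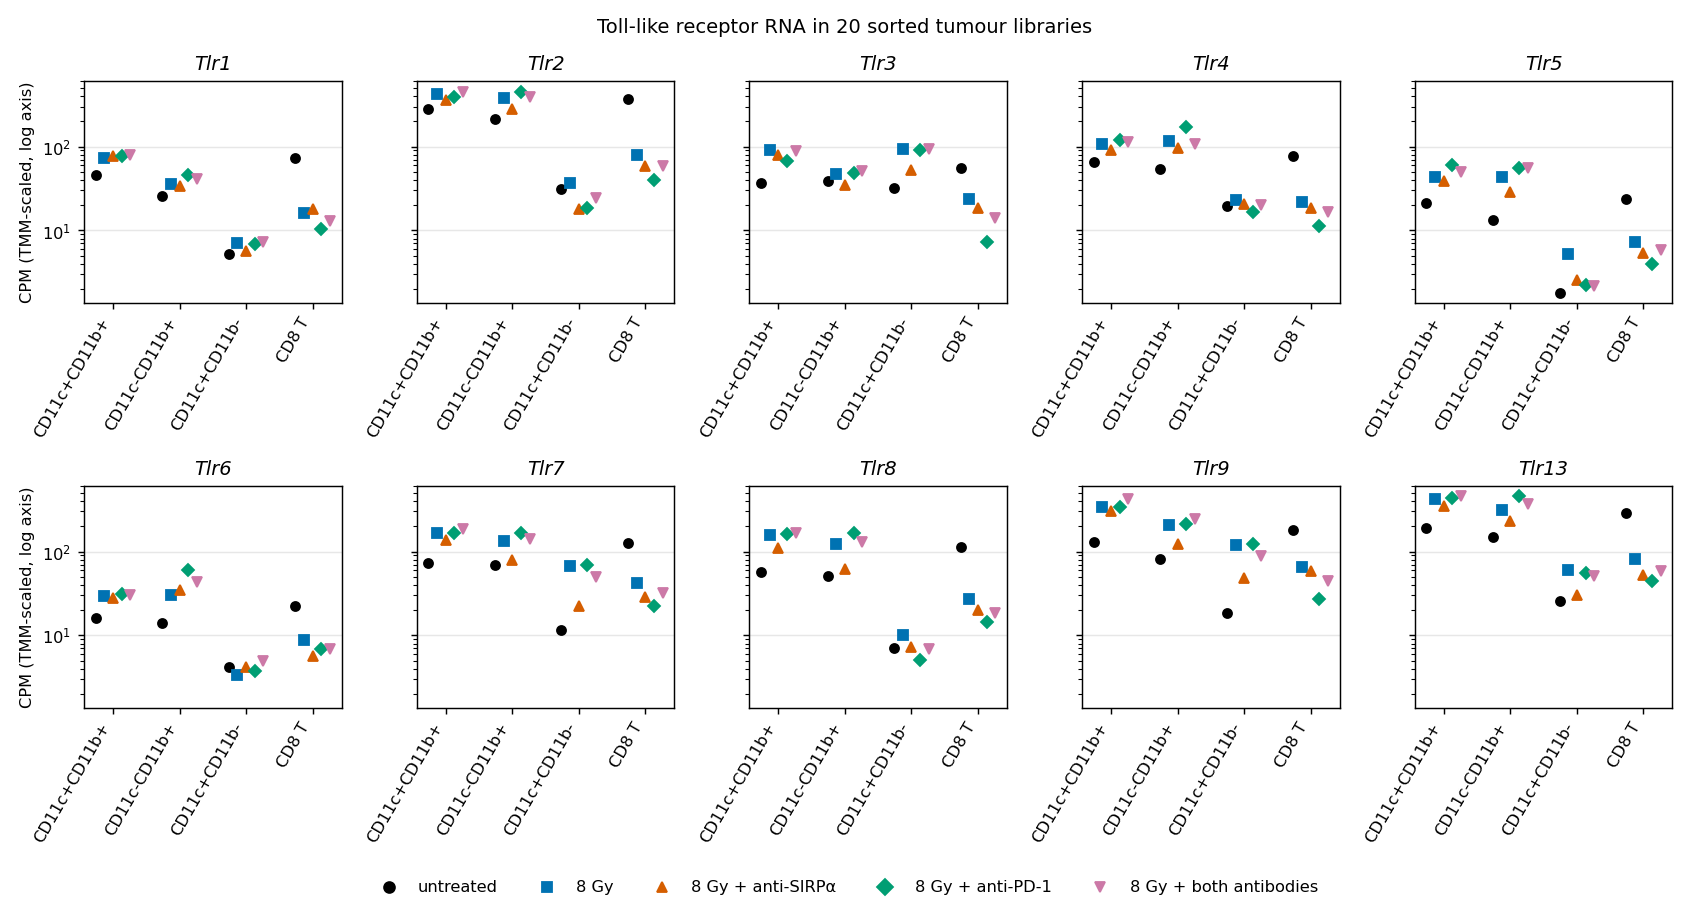
Each panel plots 1 receptor gene, with CPM on a log axis against the sorted population, and each point is 1 library, marked by treatment. For 9 of the 10 genes the CD11c+CD11b- points lie below the CD11c+CD11b+ points of every pool, Tlr3 being the exception, and in the CD8 T column the library labelled untreated is the highest point.

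Between gates of the same tumours, CD11c+CD11b- cells had lower levels of nearly the whole family than CD11c+CD11b+ cells. The tests below are edgeR quasi-likelihood F-tests with Benjamini-Hochberg adjustment over all genes tested, with the pool as a block, and each estimate is a log2 difference ± standard error. For the surface genes, Tlr2 was at 277, 427, 362, 395 and 452 CPM in the CD11c+CD11b+ libraries (untreated, 8 Gy, 8 Gy with anti-SIRPa, 8 Gy with anti-PD-1, 8 Gy with both; the same order is used throughout). In CD11c+CD11b- it was at 31.4, 36.7, 18.2, 18.7 and 24.5 CPM, so the gates did not overlap. Of the 10 receptor genes, 9 were lower in CD11c+CD11b- and none higher, where 45.4% of all 18727 genes passed in either direction and 22.3% were lower. The ranges of the gates were apart for the same 9 genes, a state found for 15.4% of expressed genes in this direction.

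The largest differences were those of Tlr8 (-4.09 ± 0.28, adjusted p = 4.92e-05), Tlr5 (-3.94 ± 0.26), Tlr2 (-3.93 ± 0.21) and Tlr1 (-3.43 ± 0.10). Tlr13 (-3.08 ± 0.11), Tlr6 (-2.70 ± 0.18) and the lipopolysaccharide receptor gene Tlr4 (-2.30 ± 0.16) followed. The smallest that passed were those of the endosomal receptor genes Tlr9 (-2.14 ± 0.23, adjusted p = 0.000373) and Tlr7 (-1.93 ± 0.24, adjusted p = 0.000717). Tlr3, the double-stranded RNA receptor gene, stood apart: it was at 36.6, 90.3, 79.7, 67.4 and 88.5 CPM in CD11c+CD11b+ and at 31.6, 93.5, 52.5, 90.9 and 94.2 CPM in CD11c+CD11b-. Its difference was -0.05 ± 0.14 (adjusted p = 0.780), and CD11c+CD11b- was the higher gate in 3 of 5 pools. In bulk libraries, fewer cells of a type and less RNA per cell cannot be told apart.

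Against CD11c-CD11b+ cells, CD11c+CD11b- cells again had less of the same 9 genes, and 47.0% of all 18981 genes passed in either direction and 24.1% were lower. The differences ran from -3.74 ± 0.26 for Tlr2 to -1.30 ± 0.20 for Tlr9. The gates were apart across pools for 7 genes, as for 12.7% of expressed genes, and overlapped for Tlr7 and Tlr9, although every pool had the lower value in CD11c+CD11b-. Tlr3 went the other way. It was at 39.3, 47.1, 35.1, 47.8 and 51.8 CPM in CD11c-CD11b+, below CD11c+CD11b- in 4 of 5 pools, the untreated pool being the exception. The difference of 0.61 ± 0.19 passed (adjusted p = 0.0335), where 23.0% of genes were higher. Without the pool block, where 35.1% of genes passed, Tlr3 (adjusted p = 0.0708) and Tlr9 (0.0933) did not. The Tlr3 call was also lost with no filter on low counts (0.0688) and when any 1 of the 4 irradiated pools was left out, with an adjusted p of 0.114 without 8 Gy, 0.0788 without 8 Gy with anti-SIRPa, 0.0972 without 8 Gy with anti-PD-1 and 0.107 without 8 Gy with both.

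The 2 CD11b+ gates were close to each other. In CD11c+CD11b+ relative to CD11c-CD11b+, 4 of the 10 genes were higher and none lower, where 24.8% of all 18820 genes passed, 12.0% higher and 12.9% lower. Tlr1, the partner of TLR2 for triacylated lipoproteins, was at 45.9, 73.0, 76.5, 77.0 and 78.9 CPM in CD11c+CD11b+ and at 25.6 to 45.6 CPM in CD11c-CD11b+. Its ranges did not overlap, as for 5.61% of expressed genes in this direction and 2.28% in the other, and the difference was 0.93 ± 0.07 (adjusted p = 0.00019). Tlr9 was higher by 0.82 ± 0.10 (adjusted p = 0.000885), Tlr3 by 0.65 ± 0.16 (adjusted p = 0.0185) and Tlr13 by 0.32 ± 0.09 (adjusted p = 0.0375).

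Without the pool block, where 5.07% of genes passed, Tlr1 alone kept its call, with an adjusted p of 0.217 for Tlr9. The other 6 genes did not pass with the block. Tlr6, the other partner of TLR2, had a difference of -0.35 ± 0.14 (adjusted p = 0.115). CD11c+CD11b+ was the gate with the lower Tlr6 level in 4 of 5 pools, whereas it had the higher Tlr1 level in all 5. Tlr4 (-0.07 ± 0.10), Tlr2 (0.17 ± 0.09) and Tlr5 (0.19 ± 0.11) had the smallest differences. The Tlr3 call was lost without the pool of 8 Gy (adjusted p = 0.0854), of 8 Gy with anti-SIRPa (0.0633) or of 8 Gy with both (0.0746). The Tlr13 call was lost without the untreated pool (adjusted p = 0.0720) or any of those 3 pools (0.185, 0.134 and 0.105), with no filter on low counts (0.107), with a filter set by the design (0.0645) and with 15 libraries in 1 fit (0.0511).

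Genes that carry the receptors or their signals differed between the gates too. Unc93b1, which escorts the endosomal receptors from the endoplasmic reticulum, averaged 586 CPM in CD11c+CD11b+, 352 in CD11c-CD11b+ and 179 in CD11c+CD11b-, and was lower in CD11c+CD11b- than in CD11c+CD11b+ by -1.80 ± 0.18 (adjusted p = 0.000233). Of 5 genes of receptor chaperones and endosomal trafficking tested, 4 were lower and none higher in that comparison. Against CD11c-CD11b+ cells 4 were higher in CD11c+CD11b+, where 12.0% of all genes were. The counts that follow are for CD11c+CD11b- against CD11c+CD11b+, where 22.3% of all genes were lower and 23.1% higher. No list was tested as a set. Of 6 co-receptors, 5 were lower in CD11c+CD11b-, with Cd14, which hands lipopolysaccharide to TLR4, at -4.24 ± 0.25. All 5 adaptors were tested and 3 were lower, namely Ticam2 (-2.57 ± 0.19), Myd88 (-0.98 ± 0.10) and Tirap (-0.83 ± 0.12). Among 8 transcription factors, 4 were higher and 2 lower in CD11c+CD11b-. Irf8, a factor of dendritic cell development, was higher by 1.88 ± 0.12, with means of 1248 and 326 CPM, and Irf7 differed by -1.62 ± 0.09. Of 10 cytokines that the receptors induce, 8 were lower and Il12b was higher (2.16 ± 0.45, adjusted p = 0.00667).

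Across the 15 myeloid libraries, the levels of the 9 genes other than Tlr3 moved together. On log2(CPM + 1), Pearson's r between 2 of them ran from 0.726 (Tlr6 with Tlr9) to 0.990 (Tlr5 with Tlr8), with a median of 0.954, while Tlr3 had r from -0.179 (with Tlr6) to 0.488 (with Tlr9). These libraries share pools and fall into gates that differ in level, so r is a description. Among 9481 genes with a mean of at least 10 CPM, the genes most like Tlr2 were Igsf6 and Itgam (r = 0.997 each), those most like Tlr8 were Ms4a4a (0.998) and C3ar1 (0.996), and those most like Tlr13 were Atp6v0c (0.996) and Mcl1 (0.995). Tlr9 was closest to Tfeb (0.985), Mknk1 (0.985) and Cd180 (0.985), and Tlr7 to Rbm47 (0.989), Tifa (0.985) and Btk (0.984). Tlr3 had a looser neighbourhood, led by Kdr (0.962), Sco1 (0.943) and Surf1 (0.938).

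After irradiation, every receptor gene had a higher level in CD11c+CD11b+ cells. The untreated library was below all 4 irradiated libraries for 10 of 10 genes, as it was for 31.0% of expressed genes in that gate. Tlr9 was at 129 CPM untreated and at 340, 306, 337 and 417 CPM after irradiation, and Tlr3 at 36.6 and then 90.3, 79.7, 67.4 and 88.5 CPM. Both passed the test of 4 irradiated libraries against 1 untreated library: Tlr9 rose by 1.42 ± 0.20 (adjusted p = 0.0475) and Tlr3 by 1.14 ± 0.17 (adjusted p = 0.0482). They were 2 of 10 members called, where 0.888% of all 16553 genes passed and 0.622% were higher. Both calls were lost with no filter on low counts (adjusted p of 0.0803 for Tlr9 and 0.0894 for Tlr3), with a filter set by the design (0.0536 and 0.0598) with protein-coding transcripts only (0.0534 and 0.0526) and with 15 libraries in 1 fit (0.114 and 0.107), and that of Tlr3 with RLE scaling (0.0517). The single untreated library is assumed to vary as the irradiated ones do, and the spread among the latter includes any antibody effect.

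The other 8 genes were higher without passing. Tlr8 was at 57.5 CPM untreated and at 156, 111, 164 and 165 CPM after irradiation (1.36 ± 0.27, adjusted p = 0.0756), and Tlr5 at 21.2 and then 43.6, 39.1, 61.0 and 49.8 CPM (1.19 ± 0.29, adjusted p = 0.118). Tlr7 differed by 1.17 ± 0.19 (adjusted p = 0.0528) and Tlr13 by 1.10 ± 0.19 (adjusted p = 0.0591). The surface genes Tlr6 (0.87 ± 0.16), Tlr1 (0.72 ± 0.12), Tlr4 (0.72 ± 0.19) and Tlr2 (0.55 ± 0.16) had the smaller differences. The median over the 10 genes was 1.12, against 0.02 over all genes tested, and all 10 had an unadjusted p under 0.05, as did 18.5% of genes. The number that passed changed with the pools and with the share of all genes called: all 10 passed without the pool of 8 Gy with anti-SIRPa, where 11.4% of all genes did. None passed without the pool of 8 Gy (0.00% of genes) or without the pool of 8 Gy with both antibodies (0.00599%), where Tlr9 had an adjusted p of 0.216 and 0.218 and Tlr3 of 0.217 and 0.235.

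In CD11c-CD11b+ cells, all 10 estimates were above 0 and none passed, as none of 16733 genes did (0.00% called). At an unadjusted p under 0.05 there were 8 genes, against 21.3% of all genes, and DESeq2 called 5 (Tlr4, Tlr5, Tlr6, Tlr9 and Tlr13), against 8.37%. The untreated library was the lowest for 9 of 10 genes, against 31.3% of expressed genes in that gate. Tlr5 was at 13.4 CPM untreated and at 43.3, 29.1, 55.7 and 55.5 CPM after irradiation (1.78 ± 0.41, adjusted p = 0.151). Tlr6 was at 14.3 and then 30.4, 34.6, 60.5 and 43.8 CPM (1.58 ± 0.42, adjusted p = 0.155), the library with anti-PD-1 being the highest. Tlr3 was the exception, since its library with 8 Gy and anti-SIRPa (35.1 CPM) lay below the untreated one (39.3 CPM), with an estimate of 0.22 ± 0.24. Without the pool of 8 Gy with anti-SIRPa, 9 of the 10 genes passed, all but Tlr3, where 23.1% of all genes did.

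**Figure D2:**
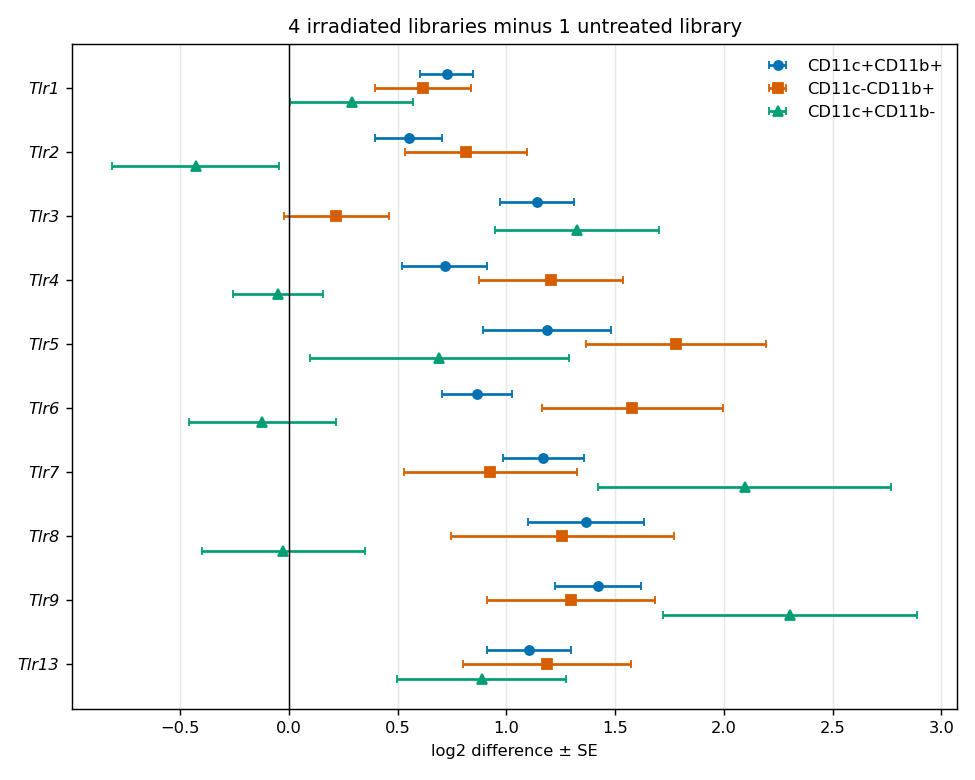
Points are log2 differences, 4 irradiated libraries minus the single untreated library, for each receptor gene in 3 myeloid populations, and bars are ± 1 standard error from the edgeR fit. All CD11c+CD11b+ and CD11c-CD11b+ points are right of 0, while the CD11c+CD11b- points range from -0.43 (Tlr2) to 2.30 (Tlr9).

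In CD11c+CD11b- cells the estimates ran from below 0 to the largest of the 3 myeloid gates, and none passed. The endosomal genes Tlr9, Tlr7, Tlr3 and Tlr13 were each lowest in the untreated library, whereas Tlr2, Tlr4, Tlr6 and Tlr8 were not. Tlr9 was at 18.4 CPM untreated and at 119, 48.0, 124 and 88.9 CPM after irradiation (2.30 ± 0.58, adjusted p = 0.0851). Tlr7 was at 11.7 and then 67.9, 22.7, 69.9 and 49.1 CPM (2.10 ± 0.67, adjusted p = 0.122). Tlr3 differed by 1.32 ± 0.38 (adjusted p = 0.0988), and Tlr13, at 25.5 and then 59.6, 30.5, 55.7 and 51.4 CPM, by 0.89 ± 0.39 (adjusted p = 0.214). In each of these genes the library of 8 Gy with anti-SIRPa lay between the untreated library and the other 3.

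None of the 10 genes passed in CD11c+CD11b- cells, where 0.0185% of all 16195 genes did, and 3 (Tlr3, Tlr7 and Tlr9) had an unadjusted p under 0.05, against 26.0% of all genes. DESeq2 called those 3, against 16.5% of genes. The untreated library lay below all irradiated ones for 6 of 10 genes, Tlr1 and Tlr5 in addition to the 4 endosomal ones, and for 37.5% of expressed genes. Without the pool of 8 Gy with anti-SIRPa, Tlr3, Tlr7, Tlr9 and Tlr13 passed, where 19.6% of all genes did. Tlr2 was at 31.4 CPM untreated and at 18.2 to 36.7 CPM after irradiation (-0.43 ± 0.38), Tlr4 had a difference of -0.05 ± 0.21 and Tlr8 of -0.03 ± 0.38.

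Some markers of dendritic cell types were, like Tlr7 and Tlr9, lowest in the untreated library and next lowest with 8 Gy and anti-SIRPa. Siglech, a receptor of plasmacytoid dendritic cells, was at 11, 172, 47.3, 232 and 124 CPM, Xcr1 at 8.25, 69.9, 30.2, 75.6 and 65.4 CPM, and Clec9a at 7.14, 52.6, 23.9, 67.1 and 54.8 CPM, the last 2 being markers of cross-presenting dendritic cells. The 9 plasmacytoid markers summed to 411 CPM in the untreated library and 441 to 1162 CPM in the irradiated ones, and the markers of cross-presenting dendritic cells, without Tlr11, to 145 and 491 to 1571 CPM. With 8 Gy and anti-SIRPa the plasmacytoid sum was 1.07 times the untreated one, and that of cross-presenting dendritic cells, without Tlr11, 3.38 times. The sums of mature and of conventional type 2 dendritic cell markers were 1.88 and 1.16 times. Tlr7 was at 1.93 times and Tlr9 at 2.61 times its untreated level. Mature dendritic cell markers summed to 396 and 744 to 1711 CPM, and conventional type 2 dendritic cell markers to 120 and 139 to 339 CPM. Stroma markers went down, from 5853 to between 408 and 1509 CPM. No marker of these lists was at 0 in all 5 libraries of this gate. Tlr11 and Tlr12, the profilin receptors that complete the mouse family, were also lowest in the untreated library and next lowest with 8 Gy and anti-SIRPa, at 1.20, 15.2, 7.24, 22.4 and 17.0 CPM (Tlr11) and at 6.59, 28.5, 16.2, 30.0 and 23.4 CPM (Tlr12). The B cell markers summed to at most 6.96 CPM. The part of these marker changes in the Tlr7 and Tlr9 differences was not tested.

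**Figure D3:**
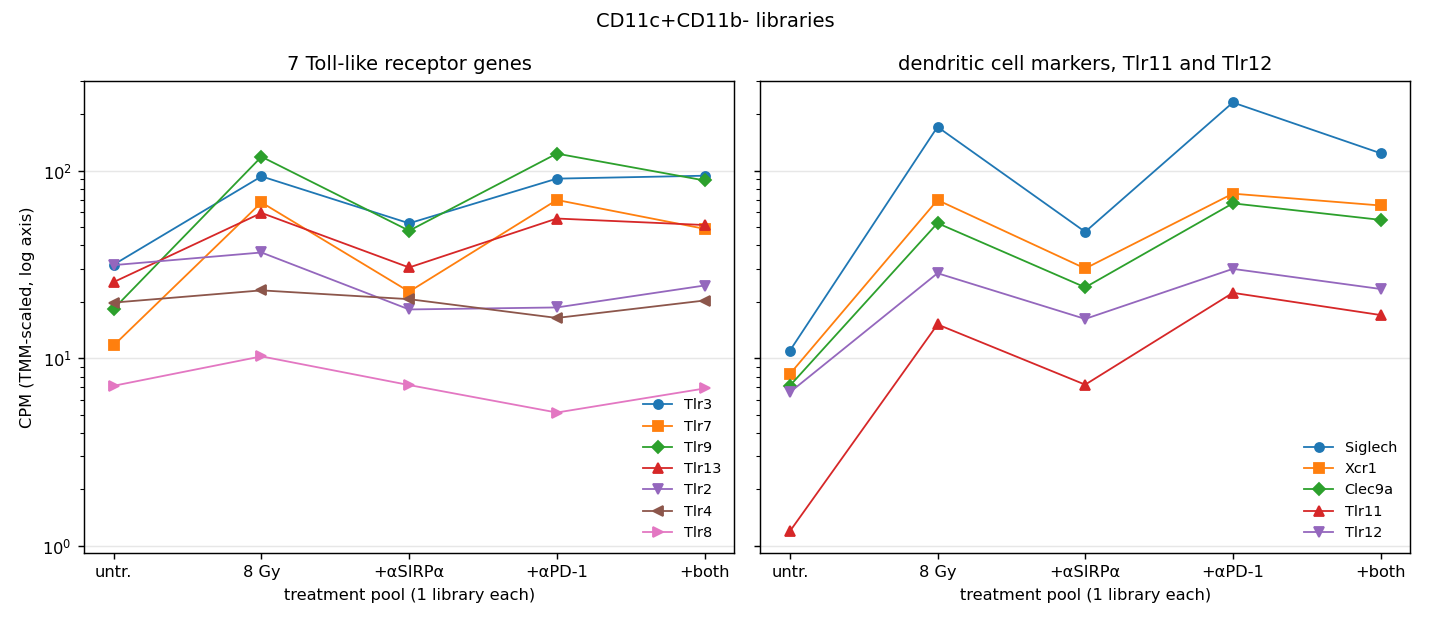
The plots give CPM on a log axis in the 5 CD11c+CD11b- libraries, 1 per treatment pool, for 7 receptor genes (left) and for Siglech, Xcr1, Clec9a, Tlr11 and Tlr12 (right), with lines joining the libraries of a gene. Tlr7 and Tlr9 and all genes on the right are lowest in the untreated library and next lowest with 8 Gy and anti-SIRPa, while Tlr4 stays between 16.4 and 23.1.

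Marker sums in the CD11b+ gates were as follows. In CD11c+CD11b+, 11 macrophage markers summed to 7575 CPM untreated and 11826 to 14625 CPM irradiated, inflammatory monocyte markers to 8875 and 4235 to 5416 CPM, and stroma markers to 4366 and 720 to 1643 CPM. Of the 11 macrophage markers 2 rose, where 0.622% of all genes did. Of the 7 monocyte markers 2 fell, where 0.266% of all genes did, with single differences from -2.20 to 1.23 and a median of 0.05. In CD11c-CD11b+ no marker of these lists passed. The untreated sums of macrophage, neutrophil and inflammatory monocyte markers lay within the irradiated ranges there. The macrophage sum was 5819 CPM untreated and 4464 to 8673 irradiated, with neutrophil markers at 872 and 648 to 3205 CPM and monocyte markers at 7532 and 6982 to 8366 CPM. Other sums lay outside: stroma markers were at 5708 CPM untreated and 1191 to 2645 irradiated, and conventional type 2 dendritic cell markers at 442 and 497 to 877 CPM. All markers of these lists were above 0 in at least 1 library of these gates. Their part in the receptor differences was not tested.

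Of 16 type I interferon response genes, 6 rose and none fell in irradiated CD11c+CD11b+ cells, where 0.622% of all genes rose and 0.266% fell. The calls in this paragraph rest on the same single untreated library. The share of all genes called in that test changed with the pools and the processing. Irf7, a transcription factor of the TLR7 and TLR9 pathway, rose by 1.31 ± 0.15 from 425 CPM to a mean of 1061 CPM (adjusted p = 0.0398), and Ifit2 by 1.12 ± 0.16. Of 6 co-receptors, 2 rose: Cd180 by 1.25 ± 0.15 (adjusted p = 0.0398) and Ly86 by 0.79 ± 0.11 (adjusted p = 0.0475), which together form a receptor related to TLR4 and its partner. Vcan, which encodes the extracellular matrix ligand versican, fell by 1.41 (standard error 0.16), and the chemokine gene Cxcl1 fell by 1.96 (standard error 0.21). No adaptor, kinase or ubiquitin ligase, chaperone or restraint gene of the lists passed there, of 4, 12, 5 and 9 tested. In the other 2 gates no gene of these lists was among the 3 and 0 genes that passed.

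The irradiation estimates were not shown to differ between the 3 gates. In the interaction test over the 15 myeloid libraries none of the 10 genes passed, where 1.08% of all genes did. The smallest adjusted p were those of Tlr6 (0.104) and Tlr3 (0.111), 5 genes had an unadjusted p under 0.05 (Tlr2, Tlr3, Tlr4, Tlr6 and Tlr7), against 17.4% of all genes, and DESeq2 called 3 (Tlr2, Tlr3 and Tlr6), against 7.31%.

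The CD8 T libraries held receptor RNA alongside macrophage markers. In the library labelled untreated CD8 T the 10 genes were at 111% to 195% of the untreated CD11c+CD11b+ library, with the macrophage sum at 249%. In the 4 irradiated CD8 T libraries they were at 6.50% to 30.0% of the CD11c+CD11b+ library of the same pool, with the macrophage sum at 10.3% to 22.4%. Tlr2 was at 372 CPM in the library labelled untreated and at 80.4, 58.7, 40.4 and 57.9 CPM in the others, and Tlr6 at 22.3 and then 8.84, 5.62, 6.90 and 6.96 CPM. The macrophage sum was 2750, 2536, 1217 and 1937 CPM in the 4 irradiated libraries. Among these, all genes but Tlr1 and Tlr6 were highest with 8 Gy alone and lowest with 8 Gy and anti-PD-1, as was the macrophage sum. Tlr6 was instead lowest with 8 Gy and anti-SIRPa (5.62 CPM), where the macrophage sum was 2536 CPM. Tlr1 was highest in that library (17.9 CPM, against 16.2 CPM with 8 Gy alone). Whether T cells themselves held any receptor RNA was not tested.

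With all 20 libraries, 2 of 10 genes were lower in CD8 T than in the mean of the 3 myeloid gates, Tlr3 (-1.40 ± 0.41, adjusted p = 0.0163) and Tlr4 (-1.18 ± 0.40, adjusted p = 0.0333), where 35.5% of all 20382 genes passed, 15.9% lower and 19.5% higher. Without the library labelled untreated CD8 T, 50.6% of all 20944 genes passed and all 10 receptor genes were lower than that mean. The differences ran from -2.12 ± 0.26 for Tlr3 (adjusted p = 8.46e-06) to -0.93 ± 0.13 for Tlr1 (adjusted p = 3.16e-05). With that library kept, both calls were lost when any 1 irradiated pool was left out, with an adjusted p of 0.0716 to 0.109 for Tlr3 and of 0.135 to 0.170 for Tlr4. CD8 T libraries were not below every gate. Against CD11c+CD11b- they were higher in all 5 pools for Tlr1, Tlr2, Tlr5, Tlr6 and Tlr8, and in 4 of 5 for Tlr13. They were lower in 4 of 5 pools for Tlr3 and Tlr4, and in 3 of 5 for Tlr7 and Tlr9. These pools include the library labelled untreated CD8 T. Irradiation was not tested in CD8 T cells, because the only untreated library goes against its label.

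**Figure D4:**
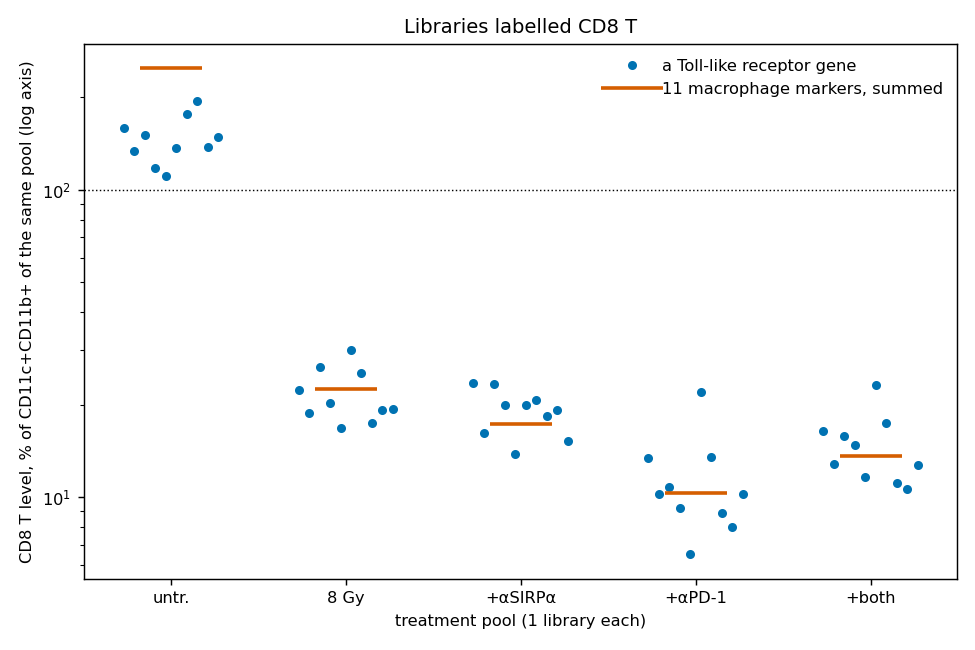
For each treatment pool, dots give the level of each of the 10 receptor genes in the CD8 T library as a percentage of the CD11c+CD11b+ library of the same pool on a log axis, and bars give the same for the sum of 11 macrophage markers. Dots and bar lie above 100% in the library labelled untreated and at 30.0% or less in the 4 irradiated pools.

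Among irradiated tumours, anti-PD-1 was compared in a 2 by 2 design with 1 library per combination, which leaves 1 residual degree of freedom. In CD11c+CD11b+ cells the flagellin receptor gene Tlr5 was at 61.0 and 49.8 CPM with anti-PD-1 and at 43.6 and 39.1 CPM without it, and rose by 0.46 ± 0.09 (adjusted p = 0.0330). It was 1 of 10 members called, where 8.85% of all 16933 genes passed, 3.09% higher and 5.75% lower, so the share of members was near the background. The call was lost in a fit of the 12 irradiated myeloid libraries (adjusted p = 0.277). In CD11c-CD11b+ cells all 10 estimates were above 0, with a median of 0.58 against 0.01 over all genes, and none passed, as none of 17118 genes did (0.00%). The largest was that of Tlr8, at 167 and 128 CPM with anti-PD-1 and 122 and 61.1 CPM without it (0.79 ± 0.18, adjusted p = 0.140). At an unadjusted p under 0.05 there were 8 genes, against 17.2% of all genes, and DESeq2 called Tlr8 and Tlr13, against 3.33%. The 11 macrophage markers had differences from 0.52 to 0.92 in the same comparison (median 0.64) and the 6 NK cell markers a median of 1.74, none passing, and their part was not tested.

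In CD11c+CD11b- cells 6 estimates were above 0 and 4 below, from -0.73 ± 0.34 for Tlr5 to 0.60 ± 0.22 for Tlr7, and none passed, where 10.2% of genes did, 4.27% higher and 5.94% lower. At an unadjusted p under 0.05 there were 3 genes (Tlr3, Tlr7 and Tlr9), against 28.6% of all genes, and DESeq2 called none, against 6.49%. Of the related genes, Tlr11 rose there by 0.92 ± 0.19 (adjusted p = 0.0284), Slc15a4, a lysosomal transporter needed for TLR7 and TLR9 responses, by 0.59 ± 0.10 (adjusted p = 0.0161), and the NF-κB subunit gene Rel by 0.78 ± 0.14 (adjusted p = 0.0196). In the same comparison 7 of 9 plasmacytoid markers and 5 of 7 markers of cross-presenting dendritic cells, a list that holds Tlr11, rose, while 5 of 11 macrophage markers and 4 of 6 stroma markers tested fell, and their part was not tested. In the interaction test none of the 10 genes passed, where 0.00504% of genes did; Tlr5 and Tlr8, the genes with the smallest unadjusted p (0.00464 and 0.000411), were called by DESeq2, against 1.5% of genes. At an unadjusted p under 0.05 there were 3 genes, against 8.31%.

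Anti-SIRPa left no receptor gene past the threshold in any myeloid gate. In CD11c+CD11b- cells Tlr7 was at 22.7 and 49.1 CPM with anti-SIRPa and at 67.9 and 69.9 CPM without it (-1.06 ± 0.22, adjusted p = 0.0758). Tlr9 was at 48.0 and 88.9 CPM with it and at 119 and 124 CPM without it (-0.91 ± 0.17, adjusted p = 0.0660). None of 10 members was called, where 0.873% of all 16603 genes were, 3 had an unadjusted p under 0.05 (14.3% of genes), and DESeq2 called Tlr9 (1.81% of genes). With RLE scaling both Tlr7 and Tlr9 passed, where 2.34% of genes did. Unc93b1, the chaperone gene of the endosomal receptors, was at 129 and 176 CPM with anti-SIRPa and 241 and 257 CPM without it, and fell by 0.75 (standard error 0.10, adjusted p = 0.0413). Siglech, listed above, was at 47.3 and 124 CPM with anti-SIRPa and at 172 and 232 CPM without it, a difference of -1.40 ± 0.19 (adjusted p = 0.0413). Of the 9 plasmacytoid markers 5 fell, Siglech among them, and their part in these differences was not tested.

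In CD11c-CD11b+ cells all 10 estimates were below 0, from -0.70 ± 0.18 for Tlr8 to -0.13 ± 0.12 for Tlr1, and none passed, as none of the genes did (0.00%). At an unadjusted p under 0.05 there were 4 genes, against 4.98% of all genes, and DESeq2 called none, against 0.0701%. In that gate neutrophil markers summed to 3205 CPM with 8 Gy and anti-SIRPa against 648 to 1578 CPM in the other irradiated libraries, and macrophage markers to 4464 against 6197 to 8673 CPM, and their part was not tested. In CD11c+CD11b+ cells the estimates ran from -0.28 ± 0.11 (Tlr8) to 0.07 ± 0.12 (Tlr3), with none of 10 called against 0.154% of genes in either direction and 0.0295% lower, 3 at an unadjusted p under 0.05 (13.1% of genes) and none by DESeq2 (0.815%). In the interaction test none of the 10 passed, where 0.0101% of genes did, 4 had an unadjusted p under 0.05 (5.97% of genes), and DESeq2 called Tlr7 and Tlr9 (0.584% of genes).

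**Figure D5:**
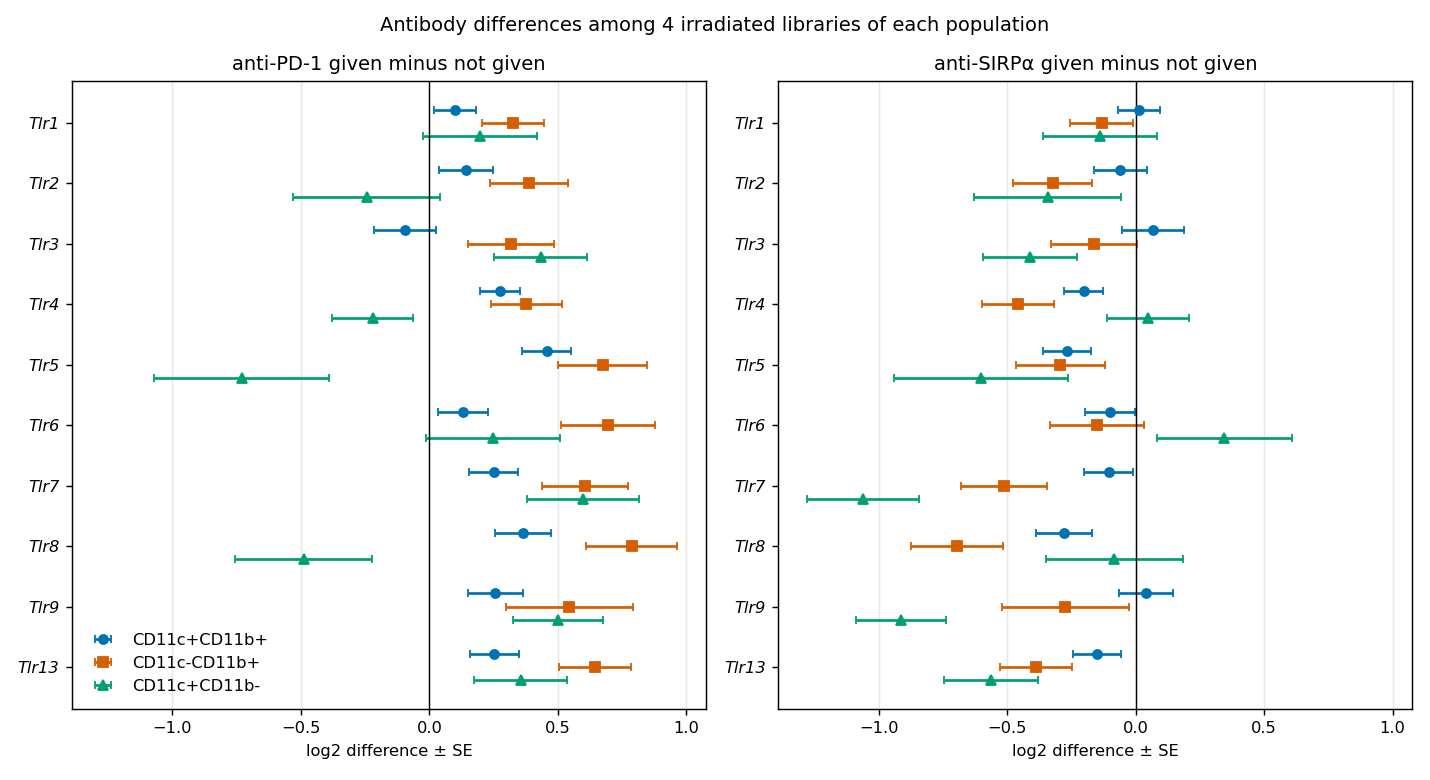
Points are log2 differences among the 4 irradiated libraries of each myeloid population, antibody given minus not given, for anti-PD-1 (left) and anti-SIRPa (right), and bars are ± 1 standard error. The CD11c-CD11b+ points are all right of 0 for anti-PD-1 and all left of 0 for anti-SIRPa, and the lowest points for anti-SIRPa are Tlr7 (-1.06) and Tlr9 (-0.91) in CD11c+CD11b-.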

How the data were processed

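The deposited values were whole-number estimated counts (expected counts) per transcript, made by the authors with HISAT2 and StringTie on GRCm38 after FastQC 0.11.8, per the submitters' processing notes, which also name edgeR 3.34.0; the sources used here do not give other settings. Of 142699 transcripts, 141469 matched GENCODE M21 and were summed to 55260 genes; the 1230 unmatched held at most 0.399% of a library's counts. No 2 of the 20 libraries were identical. Levels are CPM scaled by TMM, and TPM use transcript lengths. Tests were edgeR 4.0.16 quasi-likelihood F-tests in R 4.3.3 (filterByExpr by population, minimum count 10, total 15, Benjamini-Hochberg limit 0.05). They were also run on simulated counts with known changes. The simulated counts had the same spread setting for all genes and no pool differences. They could therefore not check the pool block or the use of a single untreated library. Standard errors are the estimate over the square root of F. Gates were compared with the pool as a block, because each pool of animals supplied all 4 gates. With 1 pool per group, p-values measure the spread between these pools. Alternatives were RLE scaling, DESeq2 1.42.0, other filters, protein-coding transcripts, other designs and leaving out pools. The members and lists were chosen with earlier results of these data known, and the filter by design was added after seeing the data. All 10 receptor genes are named, and from each list up to 4 genes past the threshold with the largest differences and a mean of at least 10 CPM in a group; other list values are described by sums. The genes passed the filter on low counts in every comparison.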

Additional observations from a re-analysis of the deposited data

Results flagged for a closer look

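In each population the 5 libraries of a gene were checked for a highest or lowest value that stood far from the rest (Dixon's ratio above 0.71). The 5 libraries are different treatments and all genes share them, so the flags are a description. Of 40 sets, 12 were flagged. In 9 of them the library labelled untreated CD8 T was the highest of the CD8 T libraries: Tlr1 at 73.2 CPM, Tlr2 at 372, Tlr4 at 78.1, Tlr5 at 23.6, Tlr6 at 22.3, Tlr7 at 128, Tlr8 at 112, Tlr9 at 179 and Tlr13 at 285 CPM. That library goes against its label. In CD11c+CD11b+ the untreated library was far below the irradiated ones for Tlr1 (45.9 CPM, the next being 73.0) and Tlr6 (16.2 CPM, the next being 28.2). In CD11c+CD11b- the library of 8 Gy alone was far above the others for Tlr5 (5.29 CPM, the next being 2.60). The part of cell content in these values was not tested.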

How the results depend on the processing

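Direction and side of the threshold held for all members under all alternatives in CD11c+CD11b- against CD11c+CD11b+, except the sign of Tlr3, which did not pass: its estimate ran from -0.17 to 0.084 over the left-out pools. For CD11c+CD11b+ against CD11c-CD11b+, 7 members passed by DESeq2 (24.4% of all genes) and 1 (Tlr1) without the pool block (5.07%). With a pool left out 2 to 6 passed (15.2% to 25.7%), where Tlr4, which did not pass, ran from -0.16 to 0.039. In CD11c+CD11b- against CD11c-CD11b+, 8 passed without the pool block (35.1% of all genes), all but Tlr3 and Tlr9. The block changed no call in CD11c+CD11b- against CD11c+CD11b+. For CD8 T, 1 passed with no filter (17.6% of all genes) and 10 without the library labelled untreated CD8 T (50.6%). With a pool left out 0 to 10 passed (20.8% to 51.2%). The block and left-out pools also turned Tlr1 there, which did not pass: 0.038 without the pool block, and from -0.94 to 0.15 over the left-out pools.

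For irradiation in CD11c+CD11b+, 10 passed by DESeq2 (7.66% of all genes) and with antibody terms added (14.1%). By RLE scaling 1 passed, Tlr9 (0.707%), and with 15 libraries in 1 fit 1 other gene did, neither Tlr9 nor Tlr3 (3.49%). The count was 0 with no filter (0.0129%) and with protein-coding transcripts only (0.0161%). It was also 0 with a filter set by the design, chosen after seeing the data (0.343%). Over the left-out pools 0 to 10 passed (0.00% to 11.4%). The Tlr9 and Tlr3 estimates kept their direction in all of these. In CD11c+CD11b-, 3 passed by DESeq2 (16.5% of all genes) and with antibody terms (17.2%). With 15 libraries 5 passed (13.2%), and over the left-out pools 0 to 4 (0.00% to 19.6%). Tlr8 turned there with protein-coding transcripts (0.052), Tlr4 and Tlr8 with antibody terms (0.011 and 0.22) and with 15 libraries (0.11 and 0.32), and over the left-out pools Tlr4 ran from -0.12 to 0.031 and Tlr8 from -0.22 to 0.11, none passing. In CD11c-CD11b+, 5 passed by DESeq2 (8.37% of all genes), 3 with 15 libraries (4.62%) and 0 to 9 over the left-out pools (0.00% to 23.1%).

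For anti-PD-1 in CD11c+CD11b+, 0 passed with no filter (0.00% of all genes) and with protein-coding transcripts (0.00797%). The count was also 0 without the term of the other antibody (0.00591%) and in the fit of 12 libraries (2.50%). In CD11c-CD11b+, 2 passed by DESeq2 (3.33%). For anti-SIRPa in CD11c+CD11b-, 2 passed by RLE scaling (2.34% of all genes) and 1 by DESeq2 (1.81%). In CD11c+CD11b+ protein-coding transcripts turned Tlr1 (-0.025) and Tlr9 (-0.0037). For the interactions of irradiation, anti-PD-1 and anti-SIRPa with population, 3, 2 and 2 passed by DESeq2, and with the CD8 T libraries added 10 passed for irradiation, where 25.1% of all genes did, and 3 for anti-PD-1. That irradiation fit rests on the library labelled untreated CD8 T, which goes against its label. The causes were not tested.

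Leaving out the untreated pool leaves no irradiation contrast, and leaving out a pool leaves no residual degrees of freedom for the antibodies, so these were not run. With 1 pool per treatment, the spread between tumour pools of 1 treatment was not measured.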
